A study of Rattus norvegicus with 9 samples.

Results

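Collagens are secreted or membrane-anchored proteins of the extracellular matrix whose alpha chains wind into triple helices, and each chain is encoded by its own gene. Fibrillar collagens (types I, II, III, V, XI, XXIV and XXVII) form or organise the banded fibrils of connective tissue. Type IV builds the network of basement membranes, where types XV and XVIII are also found, and the remaining types form beaded filaments, hexagonal nets or transmembrane proteins, or sit on the surface of fibrils. In liver, stellate cells and portal fibroblasts are the known main sources of fibrillar collagen, and the sinusoids lack a continuous basement membrane.

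The collagen chain genes were the symbols made of COL, a number, A and a number, with at least 10 counts in all. They were 35 of 23479 symbols, 9 fibrillar, 7 of basement membranes and 19 others. The livers came from 9 male rats of the outbred Wistar strain, 5 of them 6 months of age, here young 1 to 5, and 4 of them 24 months, here old 1 to 4, and their polyadenylated RNA was sequenced as 1 library each. No treatment is named in the labels, and the comparison asks how liver RNA differs between these ages. In bulk tissue, fewer cells of a type and less RNA per cell cannot be told apart.

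Libraries held 18586798 to 32882704 counts, so 3 counts, the floor below which a gene was taken as not detected, equalled 0.106 to 0.173 CPM (counts scaled to a library of 1000000). Hepatocyte markers summed to 175004 CPM or more in each library, which fits the labelled tissue. All counts of old 1 were even, and this library gave both the largest total and the lowest floor in CPM. Its counts moved in steps of 2, so its depth and floor cannot be compared directly with those of the other libraries. Young 3 stood apart in collagen RNA. Heart muscle markers, which liver does not normally express, summed to 10.3 CPM in young 1 but to 109 to 138 CPM in the other young libraries, against 2.59 to 5.91 CPM in old livers. Ryr2 alone lay at 7.05 CPM in young 1 and at 3.28 CPM in old 3. Myh6, Myh7 and Actc1 were at 0 in young 1 as in all old livers. All 25 heart muscle markers were in the table, 19 were tested, and none was at 0 throughout. Of the 19, 3 passed edgeR's test and 17 passed with DESeq2, all lower in old livers, against 1% and 5.13% of all genes. Most of the 19 passed the count filter only through young libraries where they were high. For those the lower value in old livers was set by the filter, so these counts are no independent support. Without young 3 most of the 19 no longer passed the count filter and so were not tested. Of those still tested, 0 passed edgeR's test and 2 had an unadjusted p under 0.05.

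Collagen transcripts lay lower on average in old livers, with all 9 libraries most for the fibrillar genes, but no single gene passed edgeR's test over all genes. Of the 35 members, 22 had enough counts to be tested, and of these 0 had an adjusted p under 0.05 by edgeR's quasi-likelihood test, where 1% of all 12778 tested genes did. DESeq2 called 1 member, Col5a1, where it called 5.13% of all genes. An unadjusted p under 0.05 with a lower value in old livers was found for 11 of the 22, against 6.96% of all genes, and for 0 with a higher value, against 8.94%. The log2 fold change, old over young, was below 0 for 20 of the 22 members and for 48.8% of all genes. With young 3 left out the edgeR count was again 0 (background 0.268%), while the unadjusted count went from 11 to 4 (background 6%) and 17 members were below 0 (background 48.4%). Leaving out another library gave 4 without young 4 or old 4, 5 without old 1, 6 without old 2 and 8 or 9 otherwise. These counts are in either direction, and the share over all genes was not computed for them, so they have no background here. Without both young 3 and old 1, a choice made after seeing the data, the unadjusted count of lower values was 2 of 25 (background 6.21%). Scaled by library totals alone, 20 of 22 members were again below 0, but so were 72.6% of all genes.

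Fibrillar genes had the lowest median of the classes with all 9 libraries, but not against young 1 alone. No test compared the classes. The 7 tested fibrillar genes had a median log2 fold change of -0.82, the 4 basement membrane genes -0.36 and the 11 others -0.44, beside 0.01 for all genes. In the fit with no filter beyond 10 total counts, which takes in all 35 members, the medians were -0.76, -0.48 and -0.27, and -0.27 over all 35 against -0.47 over the 22, with 26 of 35 below 0. Without young 3 the medians of the tested genes were -0.55, -0.23 and -0.04. Summed over all members of the class, fibrillar transcripts came to 209 ± 114 CPM at 6 months and 122 ± 24.5 CPM at 24 months (mean ± SD, n = 5 and 4). Without young 3 the young mean was 161 ± 38.4 CPM, so that the old mean came to 58.0% of the young mean with that library and 75.7% without it. For basement membrane genes the old mean was 83.1% of the young mean, and 85.2% without young 3, and for the others 83.1% and 95.6%. A single gene, Col18a1, held 816 of the 881 CPM of the basement membrane class in young livers, and without it the old mean was 70.7% of the young mean, and 82.0% without young 3.

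**Figure D1:**
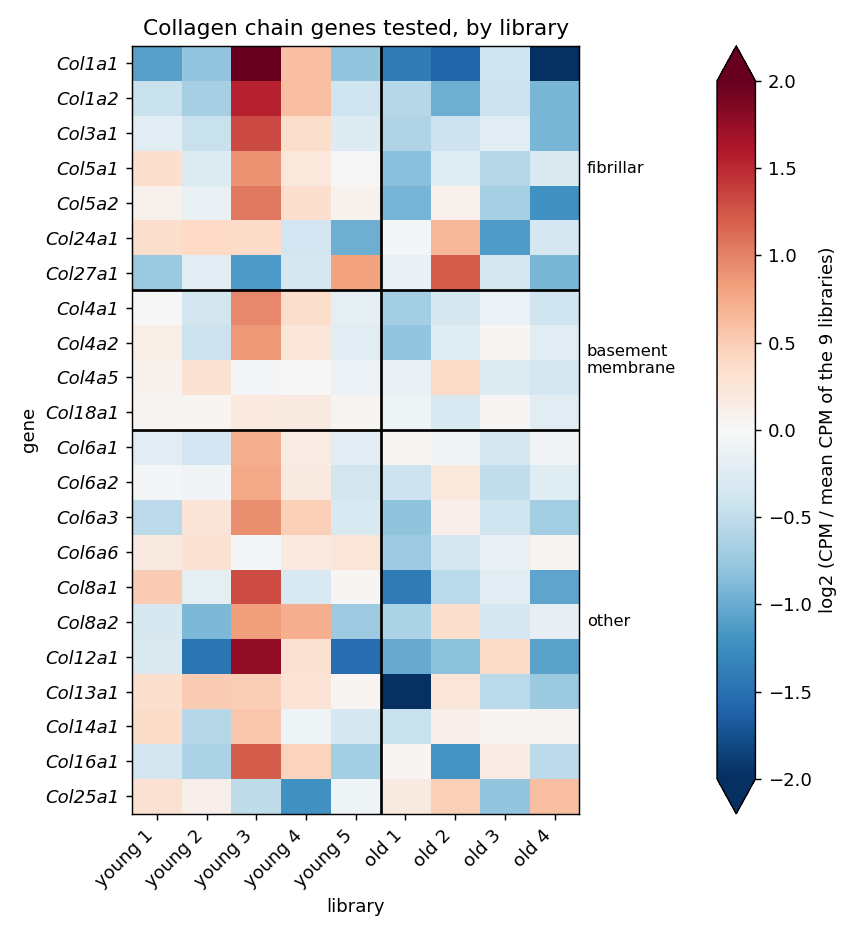
Heat map of the 22 tested collagen chain genes (rows, by class) in the 9 libraries (columns), coloured by log2 of CPM over the gene's mean CPM in all libraries. The scale ends at -2 and 2. The young 3 column is red for most rows, and it held the highest value for 16 of the 22 genes.

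Young 3 held the highest value of all 9 libraries for 16 of the 22 tested members, where 7.87% of all tested genes peaked in that library. The other peaks fell in old 2 for 3 members, in young 2 for 2 and in old 4 for 1. By class, young 3 was highest for 5 of 7 fibrillar, 3 of 4 basement membrane and 8 of 11 other genes. At the low end, old 1 held the lowest value for 7 members, beside 22.4% of all genes.

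Type I collagen, the main fibrillar collagen of scars, is a trimer of the chains of Col1a1 and Col1a2. Col1a1 lay at 4.27, 5.23, 37.6, 13.8 and 5.28 CPM in young 1 to 5 and at 3.46, 2.99, 6.88 and 2.21 CPM in old 1 to 4. Young 3 stood 2.74 times above the next library, and the groups overlapped. The log2 fold change was -1.77 ± 0.72 (SE, edgeR adjusted p = 0.278), and -0.87 ± 0.46 without young 3 (adjusted p = 0.431). Col1a2 lay at 14.4, 12.4, 57.4, 29.9 and 14.9 CPM in young livers and at 13.2, 9.95, 14.6 and 10.4 CPM in old livers. Here too young 3 and young 4 were high and the other young animals lay among or just above the old ones. Its log2 fold change of -1.096 ± 0.46 (edgeR adjusted p = 0.285) was -0.57 ± 0.28 without young 3.

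The RefSeq promoter of Col1a2 (build GRCr8, chr4:33518307-33518606, plus strand, 250 bases before to 50 after the start) is shown because Col1a2, Col5a1 and Col5a2 were all highest in young 3. Capitals mark CCAAT, the box bound by the CBF/NF-Y factor, GGGCGG, a GC box of the Sp1 kind, and TATAAA, each searched on both strands. In the same way the promoters of Col5a1 (chr3:31606630-31606929, plus strand) and Col5a2 (chr9:55090102-55090401, minus strand) are given 5′ to 3′.
Col1a2: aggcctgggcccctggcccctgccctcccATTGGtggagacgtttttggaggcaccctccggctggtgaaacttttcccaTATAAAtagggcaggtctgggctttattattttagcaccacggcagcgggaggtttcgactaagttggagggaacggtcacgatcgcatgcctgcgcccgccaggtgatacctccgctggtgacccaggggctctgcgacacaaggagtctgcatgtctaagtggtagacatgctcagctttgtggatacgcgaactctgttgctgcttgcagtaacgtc
Col5a1: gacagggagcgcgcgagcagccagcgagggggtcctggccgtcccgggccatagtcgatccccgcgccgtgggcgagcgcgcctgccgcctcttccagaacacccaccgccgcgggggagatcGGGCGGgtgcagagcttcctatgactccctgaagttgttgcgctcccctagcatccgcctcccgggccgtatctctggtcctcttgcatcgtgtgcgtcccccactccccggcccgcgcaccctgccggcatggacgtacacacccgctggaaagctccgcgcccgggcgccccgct
Col5a2: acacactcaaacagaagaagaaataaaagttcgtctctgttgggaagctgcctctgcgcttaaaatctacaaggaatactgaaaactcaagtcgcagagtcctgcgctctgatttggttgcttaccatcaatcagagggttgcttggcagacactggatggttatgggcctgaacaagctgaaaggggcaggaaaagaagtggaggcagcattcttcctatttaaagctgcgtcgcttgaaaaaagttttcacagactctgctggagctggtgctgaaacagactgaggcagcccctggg

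Col1a2 held 1 CCAAT and 1 TATAAA match, Col5a1 held 1 GGGCGG match, and Col5a2 held 0 of the 3 motifs in this window. No matched letter in these 3 promoters belonged to more than 1 motif. RefSeq gave a promoter for 27 of the 35 members and for 16 of the 22 tested ones. Among those 16, GGGCGG was found in 11, CCAAT in 3 and TATAAA in 2. Of all 27457 promoters of the same length, 34.9% held GGGCGG, 37.7% CCAAT and 14.3% TATAAA. These matches describe the letters of the windows and were not tested against expression.

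Col3a1 encodes type III collagen, which forms the reticular fibres of the liver lobule together with type I. It lay at 86.6, 75.1, 254, 130 and 85.6 CPM in young livers and at 67.4, 76.5, 87.6 and 54.3 CPM in old livers. Old 3 lay above 3 of the 5 young libraries, and the groups overlapped. Old over young, this was a log2 fold change of -0.82 ± 0.36 (edgeR adjusted p = 0.303) and -0.40 ± 0.20 without young 3 (adjusted p = 0.403).

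Type V collagen is built into type I fibrils and limits their diameter, and its genes gave the smallest p-values among the fibrillar members. Col5a1 lay at 20.8, 13.5, 30.7, 19.1 and 16.3 CPM in young and at 9.17, 13.98, 11.03 and 13.5 CPM in old livers. Only old 2 lay above a young library, young 2, so the overlap was narrow. Its log2 fold change was -0.75 ± 0.23, with an unadjusted p of 0.00767 and an adjusted p of 0.1504 by edgeR, and it ran from -0.87 to -0.55 over the fits without 1 library. DESeq2 gave an adjusted p of 0.045 for this gene. Col5a2 lay at 8.96, 7.61, 17.5, 10.7 and 8.87 CPM in young and at 4.44, 8.92, 5.31 and 3.65 CPM in old livers. Old 2 again reached the young range, and the other 3 old libraries lay below it. For Col5a2 the log2 fold change was -0.95 ± 0.31 (edgeR adjusted p = 0.176), and -0.70 ± 0.26 without young 3. Col5a1, Col5a2 and the network collagen gene Col8a1 had an unadjusted p under 0.05 in all 9 fits that left out 1 library, and no adjusted p under 0.05 in any of them. These fits share most of their libraries, and the share of all genes that did the same was not counted. This is therefore not shown to be particular to collagen genes. In the RefSeq annotation Col5a2 is the direct neighbour of Col3a1.

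Col27a1, a fibrillar collagen gene known mainly from cartilage, showed another pattern. It lay at 8.19, 11.95, 6.23, 10.9 and 24.1 CPM in young and at 12.5, 31.8, 10.9 and 7.34 CPM in old livers. Young 3, the library highest for most members, was the lowest here, while young 5 and old 2 were high. The log2 fold change of 0.34 ± 0.49 (edgeR adjusted p = 0.756) was -0.26 without old 2. Col24a1, the remaining tested fibrillar gene, lay between 0.231 and 0.805 CPM in all libraries. The cartilage collagen gene Col11a2 (48 counts in all) and Col5a3 (63 counts) were too low to be tested, and Col2a1 had 0 counts.

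**Figure D2:**
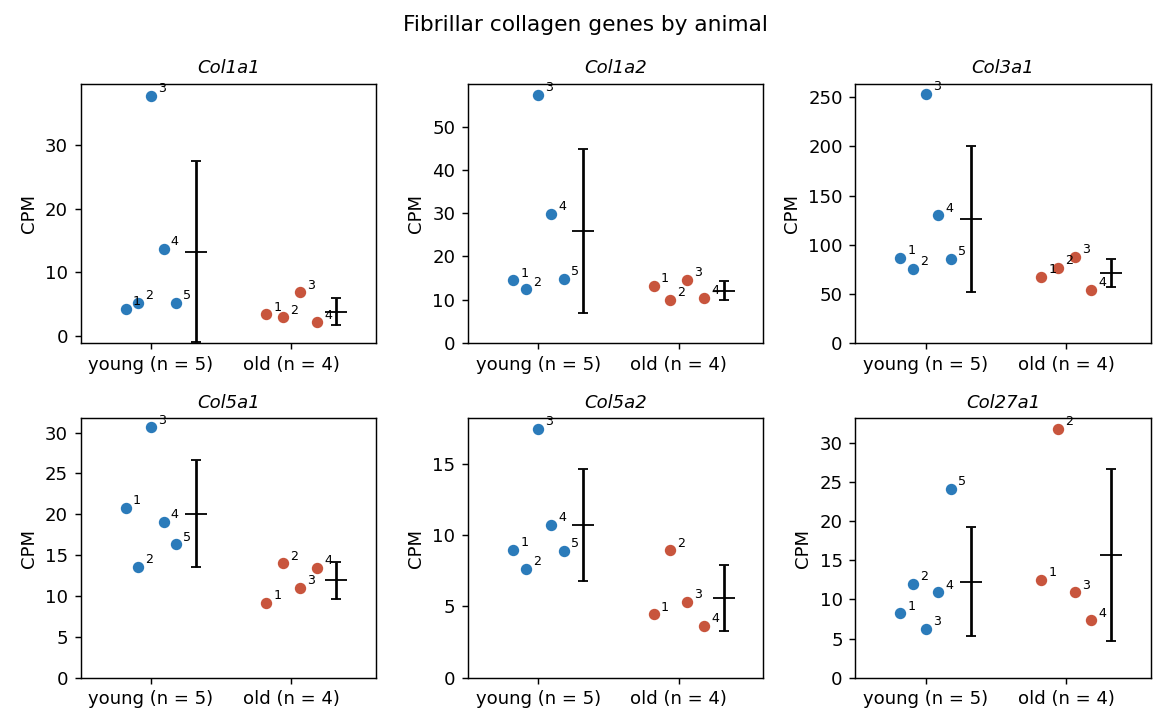
CPM of 6 fibrillar collagen genes in each animal (points, numbered by replicate, blue young and red old), with the mean and SD of each group in black. Young 3 is the top point for all but Col27a1, where it is the lowest at 6.23 CPM.

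Type IV collagen of most basement membranes is made of the chains of Col4a1 and Col4a2, neighbouring genes read in opposite directions from a shared promoter. Col4a1 lay at 29.0, 22.2, 56.2, 36.8 and 25.4 CPM in young and at 18.1, 22.95, 26.6 and 21.9 CPM in old livers. Col4a2 lay at 22.7, 15.4, 38.1, 24.7 and 17.7 CPM in young and at 11.99, 17.6, 21.3 and 17.8 CPM in old livers. Both were highest in young 3 and lowest in old 1, and both overlapped between the ages. The log2 fold changes were -0.60 ± 0.26 for Col4a1 and -0.47 ± 0.26 for Col4a2 (edgeR adjusted p = 0.290 and 0.412), and -0.34 and -0.23 without young 3. The start sites of this pair lie 77 bases apart in RefSeq (GRCr8), and the windows of both promoters share 176 bases (chr16:84885471-84885646). That stretch is shown on the plus strand, in the direction of Col4a1, with the same 3 motifs in capitals, because the levels of the pair kept the steadiest ratio among the pairs compared.
Col4a1 and Col4a2 shared stretch: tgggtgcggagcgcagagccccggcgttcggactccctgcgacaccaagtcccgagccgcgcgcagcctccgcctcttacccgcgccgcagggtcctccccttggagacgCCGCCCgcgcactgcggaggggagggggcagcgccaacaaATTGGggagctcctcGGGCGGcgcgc

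The stretch held 2 GGGCGG matches and 1 CCAAT match. The ratio of Col4a1 to Col4a2 counts ran from 1.23 in old 4 to 1.51 in old 1, a span of 1.22 times. The next narrowest spans were 1.69 times for Col6a2 to Col6a1 and 1.77 times for Col3a1 to Col1a2. By contrast, the ratio of Col1a1 to Col1a2 ran from 0.212 in old 4 to 0.656 in young 3, a span of 3.10 times. The ratio of Col3a1 to Col1a1 was lowest in young 3, at 6.74, and highest in old 2, at 25.6. Young 3 thus had the most Col1a1 relative to both Col1a2 and Col3a1. These ratios compare the same pair between libraries and carry no information on the relative amount of chains of different length.

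**Figure D3:**
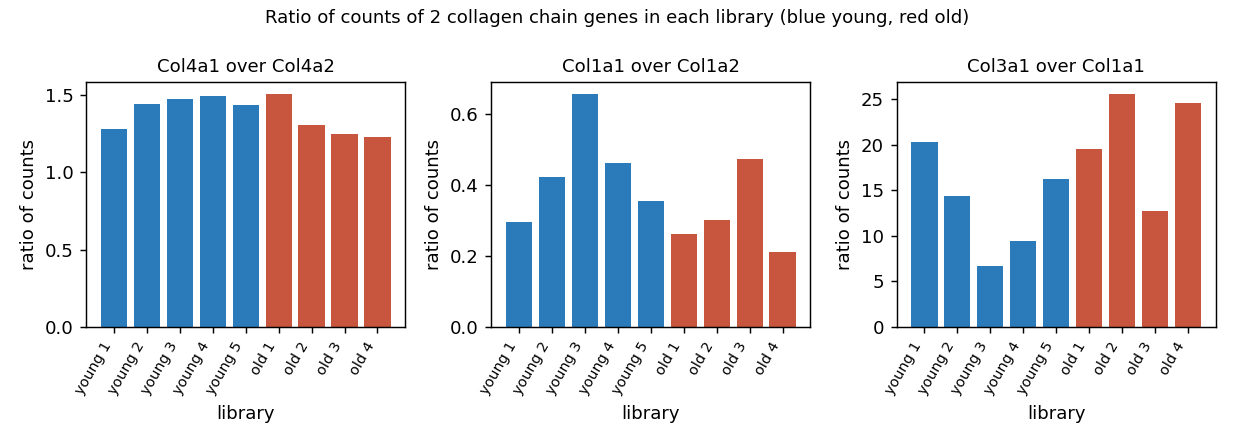
Ratio of counts of Col4a1 to Col4a2, Col1a1 to Col1a2 and Col3a1 to Col1a1 in each library (bars, blue young and red old). The first varies 1.22 times between libraries, the others 3.10 and 3.79 times.

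Col18a1 encodes type XVIII collagen, a basement membrane proteoglycan whose end is released as endostatin, and hepatocytes are a known source of it. It was the only tested member whose groups did not overlap, where 3.12% of all genes had old values wholly below the young ones. Col18a1 lay at 790, 776, 865, 855 and 791 CPM in young and at 711, 615, 767 and 651 CPM in old livers. The gap between the lowest young and the highest old animal was narrow, and young 3 was only marginally the highest. Its log2 fold change was small, at -0.25 ± 0.11 (edgeR adjusted p = 0.288), and -0.23 ± 0.12 without young 3. Col4a5, the X-linked type IV gene, lay between 4.97 and 8.28 CPM in all libraries, with a log2 fold change of -0.11 ± 0.17. Col4a3, Col4a4 and Col4a6 were too low to be tested, with 83, 51 and 19 counts in all, and Col15a1 had 2 counts and was no member. Counts of Col4a4 were 8, 14, 6, 9 and 7 in young and 0, 4, 2 and 1 in old livers. In the fit without the standard filter the log2 fold change of Col4a4 was -2.18 (edgeR adjusted p = 0.165).

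Type VI collagen forms beaded filaments from the chains of Col6a1, Col6a2 and Col6a3. Col6a1 lay at 27.3, 24.4, 52.6, 35.4 and 27.1 CPM in young and at 32.3, 30.4, 25.01 and 30.6 CPM in old livers. Apart from young 3 the ages covered the same range, and the log2 fold change went from -0.17 ± 0.21 with that library to 0.05 ± 0.14 without it. Col6a2 lay at 11.7, 11.6, 20.4, 13.6 and 9.39 CPM in young and at 9.10, 14.04, 8.58 and 10.1 CPM in old livers, with a log2 fold change of -0.35 ± 0.23 (edgeR adjusted p = 0.481). Col6a3 lay at 7.89, 13.6, 21.6, 15.7 and 9.23 CPM in young and at 6.49, 12.1, 8.58 and 7.06 CPM in old livers, with a log2 fold change of -0.67 ± 0.30 (adjusted p = 0.314). In both genes the ages overlapped and young 3 was the highest.

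Col6a5 and Col6a6 encode type VI chains that can take the place of the Col6a3 chain. Col6a6 lay at 2.67, 2.86, 2.31, 2.67 and 2.77 CPM in young and at 1.41, 1.84, 2.12 and 2.45 CPM in old livers. Young 3 was the lowest young animal here, and without it the groups did not overlap, as for 4.36% of all genes. The log2 fold change of Col6a6 was -0.44 ± 0.20 (edgeR adjusted p = 0.314), and -0.49 ± 0.22 without young 3. Col6a5, not tested at the standard filter, had 4, 2, 6, 0 and 2 counts in young and 30, 13, 7 and 15 counts in old livers. Of the 5 young values of Col6a5, 3 were below the floor of 3 counts. In the fit without that filter its log2 fold change was 2.43 (edgeR adjusted p = 0.101), the only member with an unadjusted p under 0.05 in the higher direction, against 8.72% of the 15499 genes of that fit.

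Col8a1 and Col8a2 encode the short network collagen of type VIII, found in vessel walls and in Descemet's membrane of the eye. Col8a1 lay at 2.13, 1.34, 3.73, 1.22 and 1.54 CPM in young and at 0.564, 1.04, 1.29 and 0.722 CPM in old livers. Only old 3 reached the young range. This gave a log2 fold change of -1.15 ± 0.40 (edgeR adjusted p = 0.204), and -0.80 ± 0.33 without young 3. Col8a2 lay between 0.408 and 1.37 CPM, with a log2 fold change of -0.26 ± 0.43.

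Col14a1 and Col12a1 belong to the collagens that sit on fibril surfaces. Col14a1 lay at 43.9, 22.8, 49.3, 31.98 and 26.8 CPM in young and at 24.8, 36.2, 34.6 and 35.3 CPM in old livers, with the old range inside the young one. Its log2 fold change was -0.10 ± 0.23 (edgeR adjusted p = 0.857), and 0.06 without young 3. Col12a1 reached 13.6 CPM in young 3 and lay between 1.38 and 5.12 CPM elsewhere, so that its log2 fold change of -0.81 ± 0.68 was 0.03 ± 0.48 without that library. Col16a1, of the same kind, lay between 0.575 and 3.07 CPM and was also highest in young 3.

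Col13a1, a transmembrane collagen gene, lay at 5.87, 6.68, 6.605, 5.64 and 4.82 CPM in young and at 0.917, 5.52, 3.23 and 2.81 CPM in old livers. Old 1 was far below the rest, and old 2 lay inside the young range. The log2 fold change was -0.94 ± 0.38 (edgeR adjusted p = 0.272), -0.90 ± 0.42 without young 3, -0.63 without old 1, and -0.59 without both. Col25a1, another transmembrane collagen gene, lay between 1.26 and 4.45 CPM, with a log2 fold change of 0.39 ± 0.34. The other untested members were Col7a1, Col9a3, Col10a1, Col17a1, Col20a1, Col22a1 and Col28a1, with 13 to 69 counts each in all 9 libraries together.

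**Figure D4:**
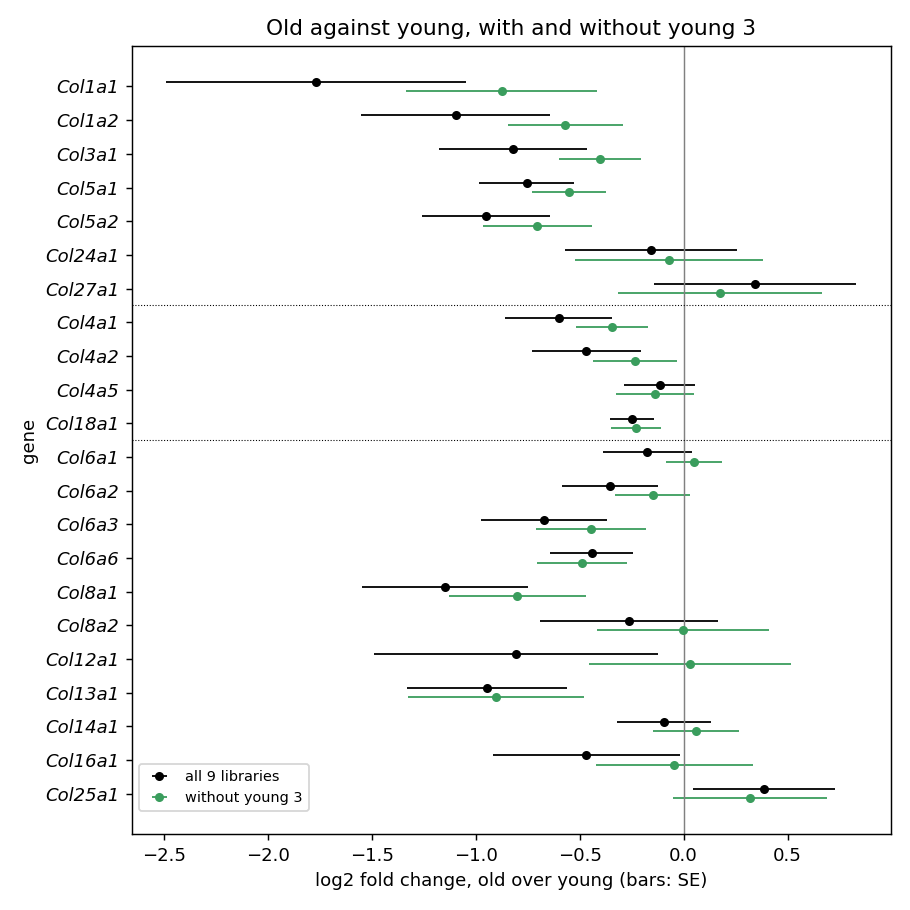
Log2 fold change, old over young, of the 22 tested collagen chain genes (rows, classes apart by dotted lines) with all 9 libraries (black) and without young 3 (green), bars showing the SE from edgeR. Col1a1 moves from -1.77 to -0.87 and Col12a1 from -0.81 to 0.03, while Col18a1 and Col13a1 stay within 0.05 of their value.

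Enzymes and partners of collagen were described from 10 lists, with 91 tested genes in all, of which 0 passed edgeR's test over all genes (background 1%) and 6 passed with DESeq2 (background 5.13%). The 16 tested basement membrane partners had the lowest median of these lists, at -0.35, and -0.28 without young 3, beside 0.01 for all genes. An unadjusted p under 0.05 was found for 5 of them with lower values in old livers (background 6.96%), or 3 without young 3, and for 1 with a higher value (background 8.94%). Lamb2, a laminin chain gene, had means of 11.7 ± 1.79 CPM (young) and 7.195 ± 1.1 CPM (old) (log2 -0.71 ± 0.15, edgeR adjusted p = 0.0583). Sparc, a collagen-binding matrix protein gene, lay at 89.5, 77.5, 143, 93.5 and 79.8 CPM in young and at 55.2, 66.9, 58.9 and 57.1 CPM in old livers (adjusted p = 0.0969), and DESeq2 called both genes. Fras1, of the epithelial basement membrane, lay at 0.495 ± 0.176 and 2.57 ± 1.55 CPM (log2 2.34, edgeR adjusted p = 0.0617), with old 4 inside the young range. DESeq2 called Fras1 too (adjusted p = 0.000811), the 1 gene of this list that it called higher in old livers. Of the basement membrane partners, 8 of 16 were highest in young 3.

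Of the genes that modify, export and cleave procollagen, 0 passed edgeR's test. Medians were -0.04 over 14 genes of prolyl and lysyl modification, -0.11 over 8 of folding and export and -0.13 over 4 of propeptide processing. Over the genes still tested without young 3 these medians were -0.07, 0.05 and 0.04. In the modification list 3 of 14 genes had an unadjusted p under 0.05 and lower values in old livers (background 6.96%), or 1 without young 3. Among the 3 were the prolyl 3-hydroxylase gene P3h1 at 27.3 ± 5.34 and 21.03 ± 3.30 CPM (edgeR adjusted p = 0.298) and P3h3 (adjusted p = 0.234). Mia3, whose product TANGO1 loads procollagen for export, lay at 221 ± 21.1 and 179 ± 22.5 CPM (adjusted p = 0.245), and Mia2, its partner, at 43.3 ± 5.89 and 36.4 ± 14.3 CPM. The propeptidase gene Adamts14 lay at 0.732 ± 0.165 and 1.36 ± 0.488 CPM (adjusted p = 0.188), and Adamts2 at 4.83 ± 2.06 and 3.45 ± 1.88 CPM. The 6 crosslinking genes had a median of -0.10, and of 0.07 without young 3. Among them the lysyl oxidase gene Loxl2 lay at 5.16 ± 1.86 and 2.18 ± 0.907 CPM, with a log2 fold change of -1.26 ± 0.34 (edgeR adjusted p = 0.118, DESeq2 0.0134). The transglutaminase gene Tgm2 had the opposite sign, at 152 ± 28.9 and 206 ± 29.1 CPM (adjusted p = 0.208).

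Genes of collagen binding and breakdown had log2 fold changes of both signs. Over the genes still tested without young 3, the medians were 0.05 (fibril-organising), 0.01 (receptors), -0.10 (breakdown), 0.01 (inhibitors) and -0.13 (regulators). The values below are from all 9 libraries. The 11 fibril-organising genes had a median of -0.10, with 0 at an unadjusted p under 0.05 and 7 highest in young 3; the lowest p-values were those of Aspn (0.190) and Fn1 (0.254). Among 5 tested receptors (median 0.09), the platelet receptor gene Gp6 lay at 0.229 ± 0.135 and 0.735 ± 0.501 CPM (edgeR adjusted p = 0.202), and the fibroblast receptor gene Ddr2 at 1.99 ± 1.00 and 1.42 ± 0.232 CPM. In the breakdown list of 7 (median -0.01), Ctsk, a collagen-cutting cathepsin gene, lay at 2.20 ± 0.177 and 1.104 ± 0.482 CPM (log2 -1.004 ± 0.30, edgeR adjusted p = 0.146, DESeq2 0.0330), and all old animals lay below all young ones. The gelatinase gene Mmp9 was highest in old 3, at 5.45 CPM, with no other library above 0.920 CPM. Of the 4 metalloproteinase inhibitors (median -0.12), Reck lay at 4.82 ± 0.564 and 3.06 ± 0.336 CPM (log2 -0.65 ± 0.15, edgeR adjusted p = 0.0735, DESeq2 0.00752), and Timp1 at 2.56 ± 1.27 and 1.39 ± 0.547 CPM, highest in young 3. The 16 regulators of collagen genes had a median of -0.12 and 0 at an unadjusted p under 0.05, with the lowest p-values at Smad4 (0.112) and Tgfb2 (0.163).

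For the 16 stellate cell markers the median log2 fold change was 0.07. None of them was at 0 in all libraries, and 7 of the 16 had a log2 fold change below 0. Young 3 was highest for 5 of 16 stellate, 4 of 6 tested myofibroblast and 2 of 5 tested portal fibroblast markers, for 4 of 8 tested markers of vessel smooth muscle, for 1 of 13 endothelial and for 0 of 10 hepatocyte markers, and their part in the collagen values of young 3 was not tested. The 8 myofibroblast markers summed to 52.1 CPM in young 3, 25.5 to 33.3 CPM in the other young and 20.6 to 42.3 CPM in the old libraries. Sums of the 10 portal fibroblast markers were 14.8 to 25.2 CPM (young) and 17.1 to 21.5 CPM (old), with Mfap4 and Cd34 at 0. The 9 smooth muscle markers summed to 134.9 to 158 CPM (young, 152 CPM in young 3) and 139 to 168 CPM (old), with none at 0.

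Endothelial markers, of cells that also make type IV collagen, had a median of -0.36 over 13 tested genes, and their sum was 332 to 394 CPM in young livers, 184 CPM in old 1 and 268 to 368 CPM in the other old livers. Of the 13, 11 were below 0 (background 48.8%). An unadjusted p under 0.05 was found for 5 with lower values in old livers (background 6.96%) and for 1 with a higher value (background 8.94%). DESeq2 called 2 lower, Egfl7 and Stab1, and 1 higher (background 5.13%). Egfl7 fell from 8.94 ± 0.449 to 5.58 ± 0.874 CPM (edgeR adjusted p = 0.0407, DESeq2 0.000136). That edgeR call was lost without young 3, where its log2 fold change was again -0.68 and 0 of these markers passed (background 0.268%). Clec4g, of sinusoidal endothelium, had the opposite sign, at 19.5 ± 4.69 and 31.96 ± 5.91 CPM (edgeR adjusted p = 0.101, DESeq2 0.0147). The part of endothelial cells in the values of Col4a1 and Col4a2 was not tested. The heart muscle signal of young 2 to 5 was 109 CPM in young 3, the lowest of those 4 libraries. When the old libraries were set against young 1 only, the fibrillar median was -0.26, the basement membrane median -0.37 and that of the others -0.18. There 20 of 27 members were below 0, where 44.6% of all genes were. In that comparison, which assumes that young 1 varies like the old libraries, the log2 fold change was -0.80 for Col5a1, -0.68 for Col5a2, -0.13 for Col1a1 and -0.27 for Col3a1.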

How the data were processed

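The table the authors deposited gives, by gene symbol, whole-number read counts for 9 liver libraries with no normalization. RNA came from Qiagen RNeasy columns and libraries from an Illumina TruSeq kit that keeps no strand, per the labels' protocols, so reads of overlapping genes on opposite strands cannot be told apart. Per the submitters' processing notes reads were aligned with BWA. The genome build, annotation, counting tool and handling of multiply mapped reads are each not given in the sources used here.

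Genes were kept with edgeR's filterByExpr (minimum count 10, minimum total 15), libraries scaled by TMM, and old compared with young by the robust quasi-likelihood F test, two-sided, with Benjamini-Hochberg adjustment over all 12778 genes and a threshold of 0.05. The SE is the log2 fold change over the root of F. CPM uses TMM-scaled library sizes. In simulated counts for 12778 genes with 200 changed, this test recovered 86.4% of 2-fold and 100% of 4-fold changes. The simulation gave every gene the same spread between animals and placed changes only in genes with ample counts. These shares therefore do not give the power for the collagen genes, whose own spread was not simulated. The floor of 3 counts covers counting error only, while SD and SE include the spread between animals. DESeq2, limma-voom, other scalings and filters, a replicate block, halved counts of old 1 and leaving out each library were alternatives. Values in every library are given for members with an unadjusted p under 0.05, the 10 with the highest mean CPM and 14 fixed genes; in the partner lists, up to 2 genes each with the smallest p are named by group mean or p. Further genes (Sparc, by library, among them) were named after their values were seen. The members and lists were chosen with earlier results of these data known. Symbols and promoters come from RefSeq (GRCr8), matching all 35 members; transcript lengths and protein sequences were not used here. Fits ran in edgeR 4.0.16 under R 4.3.3, with DESeq2 1.42.0 and limma 3.58.1 for alternatives; tables and plots used pandas 2.3.3 and matplotlib 3.10.9 under Python 3.11.15. A result among the stellate cell markers, and the summed level of that list, are not reported here.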

Additional observations from a re-analysis of the deposited data

Results flagged for a closer look

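Of 38 groups of values checked for an outlying animal (16 genes and 3 class sums, each at 2 ages), 2 held a library whose gap to its nearest neighbour was large for the group's range. Chance gives about 1 such group in 20. Col1a1 lay at 37.6 CPM in young 3, against 4.27 to 13.8 CPM in the other young animals. Col14a1 lay at 24.8 CPM in old 1, against 34.6 to 36.2 CPM in the other old animals.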

How the results depend on the processing

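For the 16 members described by library, 310 of 320 log2 fold changes under 20 alternatives kept their sign and their side of the threshold. DESeq2 called 1 collagen gene (Col5a1, log2 -0.75), 6 genes of the partner lists and 655 genes in all, where edgeR called 0, 0 and 128. The count over all genes was 280 with library totals only, 68 with limma-voom, 43 with a replicate block, 0 for young 1 alone against old (429 at an unadjusted p under 0.05) and 23 without young 3 and old 1 together, a setting chosen after seeing the data. Leaving out 1 library gave 30 to 201 genes in all, 0 to 1 in the partner lists and 0 collagen genes. It left 4 to 9 members at an unadjusted p under 0.05, mostly without a share over all genes to set beside them. Library totals gave 3 partner genes and put the median of all genes at -0.17 and the fibrillar median at -1.01, or -0.84 relative to all genes. For young 1 alone the medians were -0.26 (fibrillar), -0.37 (basement membrane) and -0.18 (others). With the counts of old 1 halved they were -0.82, -0.36 and -0.43 in the same order. The median of the other collagens ran from -0.455 to -0.044 when 1 library was left out and was -0.086 without young 3 and old 1. When 1 library was left out, signs turned for Col14a1 (-0.217 to 0.061, above 0 without young 1, young 3 or old 1), Col6a1 (-0.269 to 0.051, above 0 without young 3) and Col27a1 (-0.26 to 0.74, below 0 without old 2). They also turned without young 3 and old 1 for Col14a1 (0.17) and Col6a1 (0.00506), and for young 1 alone for Col6a1 (0.12) and Col6a3 (0.13). Causes of these shifts were not tested. The labels give no pairing of animals by replicate number. Correlations of same-numbered libraries were -0.17 to 0.31, with 2 of 4 pairs closest to their own number, too few pairs to decide on pairing. With the replicate numbers as a block 0 collagen genes were called. The 13 untested members had 13 to 83 counts each over all libraries, which limits what they can show.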
